A study of Homo sapiens with 19 samples.

Results

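AKAP8 knockdown in epithelial cells was described here through 6 of the 19 samples of the series, which are also 6 of its 11 RNA-seq libraries. The cells were HMLE/Twist-ER, an established line of human mammary epithelial cells immortalized with TERT and carrying the transcription factor Twist fused to an estrogen receptor domain. All 6 libraries came from untreated cells in the epithelial state (EPI). Control cells stably expressed a non-specific shRNA (3 libraries) and knockdown cells stably expressed an shRNA against AKAP8 (3 libraries), both from lentivirus, and the labels do not say which AKAP8 shRNA was used. The libraries were taken by their labels. Cells treated with tamoxifen to reach the mesenchymal state (MES) served for side-by-side values, with 3 control and 2 knockdown libraries. Poly(A) RNA was sequenced, and the deposited tables give, for each splicing event and library, the number of junction reads of the form with the variable segment and of the form without it. The libraries of a group are listed in the tables without a name, and a library is named below by its place in that list.

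AKAP8 is a nuclear A-kinase anchoring protein that binds the regulatory subunit of protein kinase A, chromatin and RNA. Pre-mRNA splicing joins exons, and a cassette exon can be kept or skipped according to the proteins bound in and around it. In epithelial-mesenchymal transition (EMT), many cassette exons of genes of the cytoskeleton and of cell adhesion are known to switch, together with the loss of the epithelial regulators ESRP1 and ESRP2. Exon use is given below as PSI, the percent of the form with the exon among the forms that an event compares. These need not be all transcripts of the gene. PSI was computed from junction reads and the effective lengths of both forms, and a difference in PSI is always knockdown minus control in percentage points.

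The knockdown was read from AKAP8 itself. Gene values were junction reads over skipped exon events, summed per gene and scaled for library size, so they are relative levels that are not divided by gene length. AKAP8 stood at 244, 310 and 245 in the control libraries and at 121, 98.8 and 125 in the knockdown libraries. The groups did not overlap, and the knockdown libraries were at 45.3%, 37.1% and 46.9% of the control mean. The control mean was 266 ± 37.8 (SD, n = 3) and the knockdown mean 115 ± 14.0 (SD, n = 3), a log2 fold change of -1.20 (standard error 0.25, FDR = 0.066 from limma). The places in the list were taken as pairs for gene values, and with a replicate block by place the FDR was 0.023, or 0.031 with the block on the EPI libraries only. The exact permutation test of the 6 values gave p = 0.1, two-sided, which is the smallest value that 3 against 3 allows. The values rest on 2 skipped exon events (chr19:15479878-15480035 and chr19:15487787-15487825, GRCh37), and both were lower in each knockdown library than in any control library. The paralog AKAP8L had 693 ± 117 in control and 691 ± 133 in knockdown libraries (SD, n = 3), with a log2 fold change of -0.01 (FDR = 0.99 from limma).

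The cells kept the marker pattern of their label. Of 10 basal markers 6 were measured, and the basal transcription factor TP63 had a control mean of 1580 and a log2 fold change of 0.00, with overlapping groups. E-cadherin (CDH1) had a mean of 1530 in EPI control against 80.9 in MES control libraries, and the epithelial splicing regulator ESRP1 had 3340 against 214. Vimentin (VIM) was at 31500 in EPI and 106000 in MES control libraries. Of 15 stromal and immune markers 4 were measured, and COL1A1, which had 20300 in MES control libraries, stood between 119 and 196 in the 6 EPI libraries. The summed stromal markers were 1501, 1635 and 1900 in control and 1502, 1928 and 1834 in knockdown libraries, with FAP holding the most reads. The summed basal markers were 59366, 73628 and 72795 in control and 76297, 89900 and 69263 in knockdown libraries, and their part in the results below was not tested. Among them the integrin ITGA6 held the most reads in control (mean 30700) and the keratin KRT6A in knockdown libraries (mean 41700). Depth was similar, with 32552183 to 35992812 skipped exon junction reads per control library and 31258177 to 38997923 per knockdown library, a read being counted once for each event it touches. The p-values below measure the spread between these libraries, and in RNA from bulk cultures fewer cells of a type and less RNA per cell cannot be told apart.

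Few events were called between AKAP8 knockdown and control libraries, among them exons of tropomyosins, ADD3, RAI14, CD44 and CLSTN1. Of 47579 skipped exon (SE) events tested in 9476 genes, 28 passed an FDR under 0.05 with a difference of at least 10 points, which is 0.0588% of the events tested. Inclusion rose in 13 events (0.0273% of those tested) and fell in 15 (0.0315%), in 26 genes. At an unadjusted p under 0.05, 372 events (0.782%) differed by at least 10 points. Over all tested events the median absolute difference was 0.58 points, and 1081 events (2.27%) differed by at least 10 points before any test. Of the 28 events, 27 had control and knockdown libraries that did not overlap, with SMC5 the exception, beside 5.66% of all SE events tested, and since the call used the same values this is a description. A difference of 20 points or more was found for 11 of them. Among the other event types, 3 of 11489 mutually exclusive exon events (MXE, 0.0261%), 1 of 1613 alternative 5' splice site events (A5SS, 0.062%), 0 of 1759 retained introns and 0 of 2568 alternative 3' splice sites passed. At an unadjusted p under 0.05 with the same difference, 25 retained introns and 42 alternative 3' splice sites passed by the quasi-binomial test. The count depends on the test, since limma on the logit of PSI called 0 SE events, with 232 at an unadjusted p under 0.05. With the dispersion trend on all reads the count was 46. It also depends on single libraries: 16 SE events were called without the first or without the third control library and 17 without the third knockdown library. Of the 28 calls, 21 were lost when at least 1 of the 6 libraries was left out and 7 were kept throughout. The count of the other event types, 4 in all, was less stable. It ran from 2 to 85 with a library left out, and was 12 with a replicate block by place in the list.

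**Figure D1:**
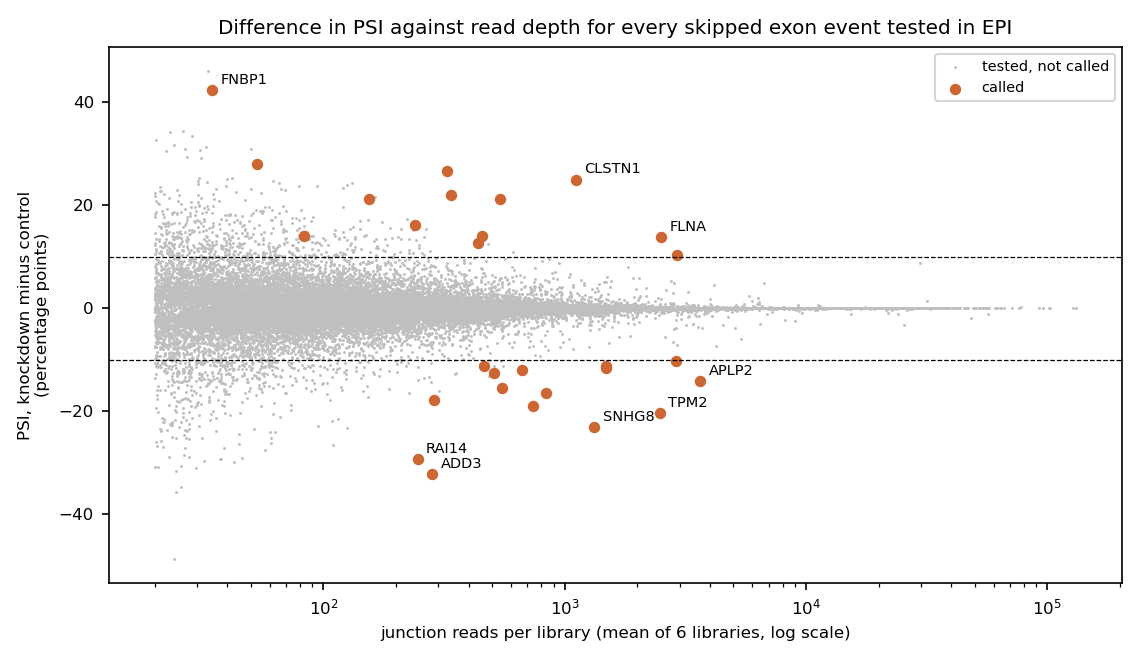
Difference in PSI, knockdown minus control in percentage points, against the mean number of junction reads per library on a log axis, for the 47579 SE events tested in EPI. Grey points were not called and the 28 orange points were called, dashed lines mark 10 points in either direction, and among events with over 1000 reads the called ones lie apart from a band near 0.

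The 28 events are described by the known role of their genes, a grouping made after their values were seen. Genes of actin filaments and the membrane skeleton carried 9 called SE events, in TPM2, TPM1, FLNA, MYO18A, ADD3, RAI14, MICALL2 and FNBP1. Tropomyosins lie along actin filaments, and TPM2 and TPM1 each carry an internal pair of alternative 76-nt exons of which a transcript normally uses a single one. In TPM2 the first exon of the pair (chr9:35685061-35685136, minus strand, coding) had a PSI of 69.9, 72.4 and 74.7 in control and 48.8, 51.3 and 55.7 in knockdown libraries. The second exon (chr9:35684729-35684804) moved the other way, from 10.2, 8.20 and 10.1 to 20.2, 20.1 and 19.3. The groups were well apart for both exons. The differences were -20.4 points (FDR = 1.1e-12) and 10.4 points (FDR = 2.5e-13), on 2474 and 2927 reads per library. Counted directly against each other as an MXE event, the first exon fell from 83.8% ± 1.2 to 68.1% ± 1.9 (SD, n = 3, FDR = 1.5e-12). These 3 values share reads and are a single change measured 3 ways. TPM1 changed in the same arrangement: its first exon (chr15:63353397-63353472) went from 91.8, 91.2 and 90.4 to 84.6, 72.4 and 78.4, a difference of -12.6 points (FDR = 0.031). Its second exon (chr15:63353912-63353987) rose by 4.7 points (FDR = 0.0085), which is under the limit of 10 points. The TPM1 call was lost when any 1 of 5 of the 6 libraries was left out, while the TPM2 first exon kept its call without each library in turn. The call of the TPM2 second exon was lost in 1 of these fits, where its difference was 9.73 points. The exons are printed below with 25 nt of intron on each side in lower case and the exon in capitals, 5' to 3' on the coding strand.
TPM2 first exon: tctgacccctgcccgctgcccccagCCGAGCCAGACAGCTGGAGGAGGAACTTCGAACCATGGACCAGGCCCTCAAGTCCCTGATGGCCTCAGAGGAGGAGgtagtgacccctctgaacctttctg
TPM2 second exon: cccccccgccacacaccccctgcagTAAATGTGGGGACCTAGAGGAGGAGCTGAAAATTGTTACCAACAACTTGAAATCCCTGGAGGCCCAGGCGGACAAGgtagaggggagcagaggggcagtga
TPM1 first exon: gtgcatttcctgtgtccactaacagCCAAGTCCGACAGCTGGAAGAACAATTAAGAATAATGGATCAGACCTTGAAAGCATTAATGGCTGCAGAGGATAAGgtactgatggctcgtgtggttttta
The first exons of TPM2 and TPM1 share 52 of 76 bases (68.4%), while the first and second exons of TPM2 share 40 of 76 (52.6%).

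**Figure D2:**
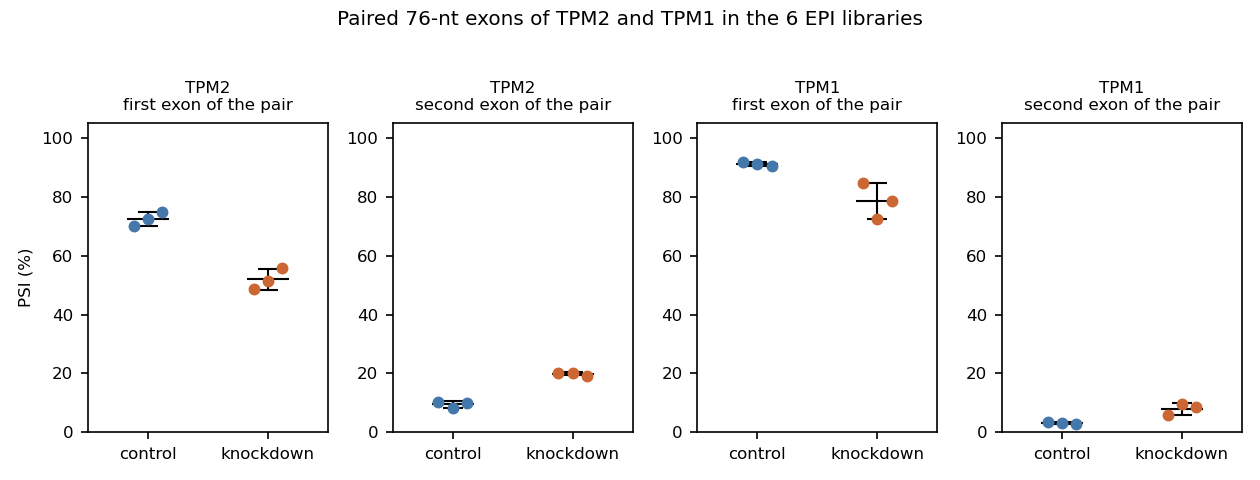
PSI in percent of both alternative 76-nt exons of TPM2 and TPM1 in 3 control (blue) and 3 knockdown (orange) EPI libraries, with the mean and SD in black. In both genes the first exon was lower and the second exon higher in every knockdown library than in any control library.

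The other members of the actin group included short exons and long ones. ADD3 encodes gamma-adducin, which caps and links actin in the membrane skeleton, and its 96-nt exon (chr10:111892063-111892158) had a PSI of 62.3, 69.4 and 64.3 in control and 37.2, 29.6 and 32.7 in knockdown libraries. This was the largest fall of any called exon, -32.2 points (FDR = 3.4e-06). RAI14, an ankyrin-repeat protein of actin structures, lost its 87-nt exon (chr5:34813679-34813765) from 81.0, 90.8 and 92.8 to 69.9, 40.8 and 66.0. The knockdown values were spread widely, with an SD of 15.8, and the second library was the lowest. The difference was -29.3 points (FDR = 1.7e-05), and leaving out the second knockdown library brought it to the -20.18 end of its leave-one-out range. The calls of RAI14 and of MYO18A, described next, were each lost in 1 of the 6 fits that left out 1 library. MYO18A, an unconventional myosin, gained a 45-nt exon (chr17:27412622-27412666), with 56.9, 52.1 and 53.9 in control and 72.9, 83.9 and 71.7 in knockdown libraries (21.9 points, FDR = 0.00081). Filamin A (FLNA), which crosslinks actin filaments, gained a 24-nt exon (chrX:153585619-153585642). Its control libraries were nearly identical at 54.5, 54.3 and 54.3, and the knockdown libraries stood at 71.8, 68.3 and 64.4 (13.8 points, FDR = 1.7e-05, 2504 reads per library). MICALL2, a Rab effector of junction assembly, and FNBP1, an F-BAR protein that bends membranes, had the largest rises together with thin coverage. FNBP1 (chr9:132686123-132686218) went from 60.5, 45.6 and 61.4 to 100, 94.1 and 100 on 35 reads per library (42.2 points, FDR = 0.029). MICALL2 (chr7:1473846-1474783, 938 nt, of which 121 bases are coding in the annotation) went from 63.0, 88.2 and 61.2 to 100, 100 and 96.2 on 53 reads per library (27.9 points, FDR = 0.042). Both calls were lost in 5 of the 6 fits that left out 1 library.
ADD3: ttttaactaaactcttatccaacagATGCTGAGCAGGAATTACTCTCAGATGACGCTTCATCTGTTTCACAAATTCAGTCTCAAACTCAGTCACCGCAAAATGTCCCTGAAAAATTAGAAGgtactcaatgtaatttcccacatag
RAI14: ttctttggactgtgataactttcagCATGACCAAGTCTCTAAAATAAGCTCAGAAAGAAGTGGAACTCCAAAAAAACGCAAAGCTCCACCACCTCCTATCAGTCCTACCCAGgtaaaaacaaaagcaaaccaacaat
MYO18A: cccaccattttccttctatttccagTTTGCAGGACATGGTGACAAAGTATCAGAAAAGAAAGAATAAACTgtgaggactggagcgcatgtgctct
FLNA: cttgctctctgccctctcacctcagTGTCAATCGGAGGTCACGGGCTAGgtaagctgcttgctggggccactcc

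Exons of surface and adhesion genes changed in both directions, with falls in CD44, APLP2, ERBB2IP and CA12 and a rise in CLSTN1. CLSTN1 encodes calsyntenin-1, a transmembrane protein of the cadherin superfamily that links vesicles to kinesin. Its 57-nt coding exon (chr1:9797556-9797612, minus strand) had a PSI of 34.4, 34.3 and 30.4 in control and 60.2, 58.7 and 54.8 in knockdown libraries. No library of either group came within 20 points of the other group, and the difference was 24.9 points (FDR = 8.6e-11, 1117 reads per library). Of 8 SE events tested in CLSTN1, this was the only one called, and the other 7 had differences under 10 points. CD44, the hyaluronan receptor, has a run of variable exons in its extracellular stem. Its exon at chr11:35222629-35222742 (114 nt) went from 48.5, 43.1 and 43.2 to 24.7, 27.8 and 25.4 (-19.0 points, FDR = 0.00025). The exon at chr11:35219668-35219793 (126 nt) went from 83.6% ± 2.1 to 73.4% ± 6.7 (SD, n = 3, FDR = 6.8e-05), close to the limit of 10 points. The latter call was lost with the dispersion trend on all reads (FDR = 0.34) and without a trend (FDR = 0.75). It was also lost in 3 of the 6 fits that left out 1 library, and the call of the 114-nt exon in 1. CD44 had 92 SE events tested, of which 2 (2.17%) were called, both toward skipping. Both events count the same skipping reads in all 6 libraries, so they are not separate changes, and the differences ran from -19.0 to 4.4 points over 7 tested events of the 114-nt exon and from -10.3 to 2.3 over 10 of the 126-nt exon. The CD44 gene value had a log2 fold change of -0.02 (FDR = 0.99 from limma, overlapping groups).
CLSTN1: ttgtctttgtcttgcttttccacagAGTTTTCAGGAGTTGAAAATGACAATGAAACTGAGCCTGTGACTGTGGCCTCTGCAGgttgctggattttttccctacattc

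APLP2, a relative of the amyloid precursor protein, had its 168-nt exon (chr11:129993507-129993674) at 66.2, 62.7 and 62.4 in control and 44.9, 52.8 and 50.9 in knockdown libraries. This was the best covered called SE event, with 3648 reads per library, a difference of -14.2 points (FDR = 3.4e-06) and no call lost when a library was left out. ERBB2IP (ERBIN), a basolateral scaffold that binds the receptor ERBB2, lost a 207-nt exon (chr5:65370852-65371058) from 92.4% ± 2.1 to 77.0% ± 1.4 (SD, n = 3, FDR = 0.00025). The ERBB2IP call was lost in 1 of the 6 fits that left out 1 library. CA12, a membrane-bound carbonic anhydrase, lost a 33-nt exon (chr15:63620297-63620329) from 63.1% ± 5.1 to 46.7% ± 4.3 (FDR = 0.00088), a call lost in 2 of the 6 fits that left out 1 library. The other tested event of this exon differed by 4.3 points. Below the limit of 10 points, 17 more SE events passed the FDR alone. Fibronectin (FN1), a matrix protein, was the deepest of those above 5 points, with 29627 reads per library: its exon at chr2:216257654-216257926 went from 33.8, 33.5 and 34.8 to 45.7, 42.5 and 40.1 (8.8 points, FDR = 1.2e-09). PARD3, a polarity scaffold, lost a 45-nt exon from 97.9% ± 1.7 to 88.6% ± 5.1 (-9.2 points, FDR = 0.005), and the small GTPase HRAS had an 82-nt exon at 17.4% ± 3.4 and 8.73% ± 2.9 (-8.6 points, FDR = 0.023).

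Genes of membranes, trafficking and organelles carried 8 called SE events and 2 called MXE events, in 9 genes. SLMAP, a tail-anchored membrane protein, gained a 90-nt exon (chr3:57911572-57911661), from 42.6, 31.9 and 41.9 to 70.1, 53.3 and 72.6 (26.5 points, FDR = 4.7e-05). FAM126A (hyccin, a subunit of the lipid kinase complex PI4KA) gained a 296-nt exon (chr7:22986571-22986866), from 52.9, 59.0 and 60.5 to 71.4, 89.5 and 75.1 (21.2 points, FDR = 0.0026). In both genes the second knockdown library was the one farthest from the other knockdown libraries. UGGT1, the folding sensor of the endoplasmic reticulum, gained a 24-nt exon (chr2:128913966-128913989) from 80.2% ± 2.6 to 96.3% ± 1.2 (SD, n = 3, FDR = 0.00017), with its call kept without each library in turn. ENTPD6, a nucleoside diphosphatase, gained a 102-nt exon from 71.9% ± 1.3 to 86.0% ± 6.4 (FDR = 0.047). Exons of the other members were lost. VPS29, a retromer subunit, lost a 12-nt exon (chr12:110937340-110937351) from 29.3% ± 2.9 to 17.2% ± 3.2 (FDR = 0.021). EHBP1, an endocytic adaptor, went from 91.8% ± 2.7 to 80.5% ± 4.9 (FDR = 0.049), and it is the called event nearest to the FDR limit. ATP5C1, the gamma subunit of mitochondrial ATP synthase, had a 37-nt exon (chr10:7848937-7848973) at 95.1 in all 3 control libraries and at 87.5, 78.7 and 85.4 in knockdown libraries (-11.3 points, FDR = 3.5e-10). TPD52L2, of the tumor protein D52 family, lost a 60-nt exon from 74.7% ± 3.0 to 63.1% ± 4.3 (FDR = 0.0085). Of the 6 fits that left out 1 library, 5 lost the calls of EHBP1 and ENTPD6 and 4 those of VPS29, the TPD52L2 cassette exon and both MXE events. The FAM126A call was lost in 2 of these fits, and those of SLMAP and ATP5C1 in 1. With a dispersion trend that was not robust the MXE calls were lost too (FDR = 0.065 for TPD52L2 and 0.056 for ESYT2). The MXE event of TPD52L2 shifted toward a 102-nt exon (chr20:62514072-62514173), from 44.5% ± 1.8 to 57.7% ± 2.4 (FDR = 0.027). Its inclusion reads are nearly the same reads as the skipping reads of the cassette exon, so the 2 events are largely a single change. ESYT2, an extended synaptotagmin that tethers membranes, shifted toward a 75-nt exon (chr7:158542340-158542414) and away from its 87-nt alternative, from 29.8% ± 1.7 to 41.1% ± 1.1 (SD, n = 3, FDR = 0.024). The short exons of the trafficking genes and of the kinase MARK3 are printed in the same way as above, to show how little sequence a change can involve.
UGGT1: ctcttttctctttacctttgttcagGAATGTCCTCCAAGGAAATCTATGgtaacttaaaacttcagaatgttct
VPS29: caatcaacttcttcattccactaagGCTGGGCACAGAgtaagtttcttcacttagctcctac
MARK3: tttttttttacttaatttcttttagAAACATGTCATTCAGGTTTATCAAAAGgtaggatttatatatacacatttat

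The remaining 5 called SE events were in 4 protein-coding genes of kinases, DNA and its repair and in 1 non-coding RNA. MARK3, a kinase of microtubule-associated proteins, had a 27-nt exon (chr14:103964839-103964865) that rose from 6.42, 5.56 and 4.35 to 24.7, 13.7 and 15.5 (12.5 points, FDR = 8.5e-06). The MARK3 call was lost in 1 of the 6 fits that left out 1 library. CLK4, a kinase that phosphorylates SR splicing proteins, rose at a 59-nt exon without coding bases in the annotation (chr5:178046839-178046897), from 4.09, 1.57 and 3.95 to 16.2, 7.03 and 28.5 (14.0 points, FDR = 0.013, 84 reads per library). Without the third knockdown library the CLK4 difference was 8.41 points (FDR = 0.81), and the call was lost in 4 of 6 such fits. SMC5, of the SMC5/6 DNA repair complex, was the called event whose groups overlapped: its 45-nt exon had 49.5, 37.6 and 52.6 in control and 85.4, 48.0 and 69.9 in knockdown libraries (21.2 points, FDR = 0.028). Without the first knockdown library the SMC5 difference was 12.37 points (FDR = 0.82), and the call was lost in 5 of the 6 fits that left out 1 library. The other tested event of the SMC5 exon differed by -2.7 points. Some exons described above or below also had 1 further tested event. That event differed by 0.1 points for the TPM2 first exon, -0.0 for APLP2, -0.3 for SNHG8 and -0.4 for TPD52L2. It differed by -0.0 points for ENTPD6, -1.2 for VPS29 and 0.8 for the TPM2 second exon. In MYO18A and MARK3 it differed by 5.6 and 24.3 points. RPAIN, which carries replication protein A into the nucleus, lost a 141-nt exon (chr17:5331391-5331531), from 85.6, 82.9 and 87.6 to 68.6, 72.3 and 61.8 (-17.8 points, FDR = 0.045), a call lost in 5 of 6 such fits. SNHG8, a non-coding host gene of a small nucleolar RNA, lost a 194-nt exon (chr4:119200099-119200292), from 76.7, 69.6 and 63.2 to 43.9, 54.5 and 41.6 (-23.1 points, FDR = 8.6e-11, 1329 reads per library). The A5SS event of SNHG8 (chr4:119199864-119200292) covers the same segment and fell from 67.4% ± 5.6 to 46.4% ± 6.5 (FDR = 4.4e-08), so the 2 events are a single change. Without a dispersion trend both SNHG8 calls were lost (FDR = 0.051 for the exon and 0.64 for the A5SS event), and with the trend on all reads the A5SS call was lost (FDR = 0.54) and the exon kept its call (FDR = 0.0018).

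**Figure D3:**
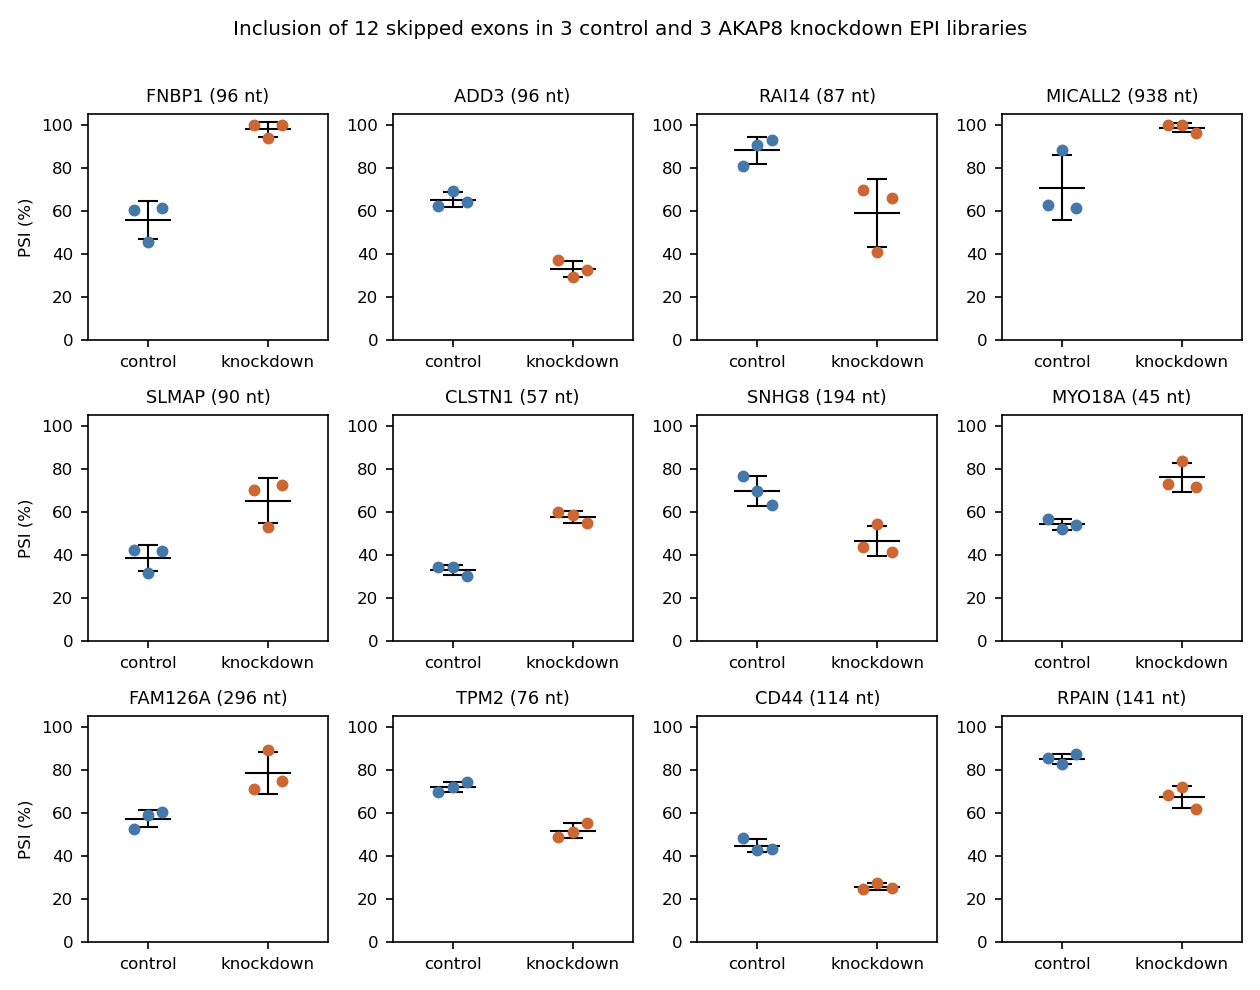
PSI in percent in each of 3 control (blue) and 3 AKAP8 knockdown (orange) EPI libraries, with the mean and SD in black, for the 12 called SE events with the largest difference whose groups do not overlap. ADD3, CLSTN1, TPM2 and CD44 have groups that lie far apart relative to their spread, while RAI14, SLMAP and MICALL2 have a library that stands away from its group.

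The changed exons were also set beside all tested exons in length, frame and annotation. Length enters PSI through the effective lengths of both forms, so the values on length are not independent of the call. Of the 28 exons 20 (71.4%) had a length that is a multiple of 3, so that the reading frame continues with or without them, beside 42.6% of the 37595 distinct exons tested. Short exons of up to 30 nt made up 4 of 28 (14.3%: FLNA, UGGT1, MARK3 and VPS29), beside 1.3% of all exons tested, and the median length was 81.5 nt beside 115 nt. The annotation (Gencode 44 on GRCh37) holds all 28 exons with these ends, and 22 (78.6%) were coding over their whole length, beside 85.7% of all tested. A length that is a multiple of 3 was found in 9 of 13 exons that rose and 11 of 15 that fell. Exons of up to 30 nt made up 23.1% of those that rose and 6.67% of those that fell, the median lengths were 59 and 96 nt, and 69.2% and 86.7% were coding throughout, with no test of these differences.

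Letters bound by known splicing regulators were searched on the coding strand, in the exon and in the 200 nt of intron on each side. ACTAAC, the core bound by Quaking (QKI), was found upstream of 4 of 28 changed exons (14.3%), beside 2.51% of all exons tested. TGCATG, bound by RBFOX proteins, was found upstream of 4 (14.3%) beside 5.62%. All of these upstream matches lay before exons that fell: ACTAAC before ADD3, TPM1, EHBP1 and RAI14, and TGCATG before ADD3, TPM1, RAI14 and ATP5C1. Downstream, TGCATG followed 5 exons (17.9%, beside 5.91%), of which SLMAP, FAM126A and FNBP1 rose and CA12 and EHBP1 fell. GGGG lay upstream of 13 exons (46.4%, beside 40.4%) and downstream of 10 (35.7%, beside 44%). GGTGG was within 200 nt downstream of 5 (17.9%, beside 27.1%), and TCTTTC, bound by PTBP1, lay upstream of 7 (25%, beside 14.9%). The motifs that begin with G can share letters with each other and with the end of TGCATG, a match is a description of the sequence, and no test was made on 28 exons. Windows of 200 nt that hold both ACTAAC and TGCATG preceded 3 changed exons (10.7%), beside 71 of 37595 (0.189%). They are printed with both hexamers in capitals, each ending at the last base before the exon.
ADD3 (chr10:111891863-111892062, plus strand): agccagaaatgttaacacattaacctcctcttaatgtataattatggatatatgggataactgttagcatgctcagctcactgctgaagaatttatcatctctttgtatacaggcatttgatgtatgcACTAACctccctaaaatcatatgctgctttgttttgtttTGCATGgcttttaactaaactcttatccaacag
TPM1 (chr15:63353197-63353396, plus strand): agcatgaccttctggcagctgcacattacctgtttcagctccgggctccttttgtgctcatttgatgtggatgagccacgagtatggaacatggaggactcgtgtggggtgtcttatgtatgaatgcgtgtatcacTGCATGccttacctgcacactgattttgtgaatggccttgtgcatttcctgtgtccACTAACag
RAI14 (chr5:34813479-34813678, plus strand): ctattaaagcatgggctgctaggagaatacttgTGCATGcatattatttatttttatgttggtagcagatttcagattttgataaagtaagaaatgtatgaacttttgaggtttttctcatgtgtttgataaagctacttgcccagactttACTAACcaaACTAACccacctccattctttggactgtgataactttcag
In TPM1 the ACTAAC match ends 2 nt before the exon, and in RAI14 it occurs 2 times, the nearer ending 34 nt before the exon.

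Binding of AKAP8 to RNA in EPI cells was given as eCLIP peaks, of which 21665 of 24637 passed a log2 enrichment over input of 2 and a -log10 p of 3. A passing peak lay within 500 nt of 3 of the 28 changed exons on the same strand (10.7%, exact 95% interval 2.27% to 28.2%), beside 615 of 37595 exons tested (1.64%). The interval covers counting error only, and a peak also needs an expressed transcript. Within 1000 nt the share was 4 of 28 (14.3%), beside 2.91% of all exons tested. With a log2 enrichment of at least 3 it was 2 of 28 (7.14%), beside 1.48%. The 3 exons were those of CLSTN1, MICALL2 and TPD52L2. The CLSTN1 peak (chr1:9797775-9797856) lay 163 nt upstream of the exon with a log2 enrichment of 2.26, close to the limit. MICALL2 had 4 peaks, at 3.59 to 5.15, before, within and after its exon, and those after the exon overlap each other. Runs of at least 3 G, in capitals here, occurred in each peak, as they did in 97.3% of all passing peaks.
CLSTN1 peak: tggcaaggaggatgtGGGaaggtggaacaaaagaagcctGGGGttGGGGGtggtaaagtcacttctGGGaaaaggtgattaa
MICALL2 peak (chr7:1474888-1474949): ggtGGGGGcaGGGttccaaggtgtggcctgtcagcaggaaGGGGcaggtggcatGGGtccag
TPD52L2 peak (chr20:62507661-62507722): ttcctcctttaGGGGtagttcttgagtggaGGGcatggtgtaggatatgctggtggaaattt
The other 25 changed exons, among them TPM2, ADD3, RAI14, FLNA and SNHG8, had no passing peak within that distance.

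Genes whose cassette exons are widely known to differ between epithelial and mesenchymal cells were followed as a list of 57 genes, which was drawn up with earlier results of these data known and so is no independent evidence. All 57 had tested SE events, 684 in all, of which 14 were called (2.05%, beside 0.0588% of all events), 6 toward inclusion and 8 toward skipping. The calls fell in 12 of the 57 genes. The other 45 genes had no called SE event, and 37 of the 57 had no event that differed by 10 points or more. The list's median difference was 0.00 points and its median absolute difference 0.39, beside -0.03 and 0.58 over all SE events. CTNND1 (p120-catenin), whose exons are a standard EMT readout, had 16 SE events with differences up to 21.1 points and none called. In gene level 6 of the 57 had an unadjusted p under 0.05 in limma, a share near the 9.86% of all genes. FGFR1 was called, and the others did not pass the FDR: NF2 at a log2 fold change of 0.54, SEC31A and CLSTN1 at 0.47, EPB41 at -0.48 and ADD3 at -0.59. Gene values add inclusion and skipping reads, and an included exon has more junctions than a skipped one. A change in exon use therefore enters the gene value, as in CLSTN1 and ADD3, and the levels are not independent of it.

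The same exons were then set beside the MES libraries, which share no library with the EPI comparison. The MES libraries came from the same HMLE/Twist-ER line with control or AKAP8 shRNA, so they are no independent line. Effects of the line or of an shRNA that both states share were not tested. Of the 28 events 27 could be tested in both states, and 24 of them moved in the same direction in MES, beside 50.8% of the 29278 SE events tested in all 11 libraries. A MES difference of at least 10 points in the same direction was found for 12 of 27, beside 2.33% of all events. MES control and knockdown libraries did not overlap, in the direction seen in EPI, for 20 of 27, beside 9% of all events. The median absolute difference of the 27 exons was 16.08 points in EPI and 8.72 in MES, and the call, made on EPI values with a floor of 10 points, favours a larger EPI median. Several exons had a MES control level near an end of the scale. CLSTN1 stood at 94.5% in MES control and 95.4% in MES knockdown libraries, and SLMAP at 90.8% and 95.5%. ADD3 was at 16.9% in MES control and fell to 4.24%, and CA12 at 9.71% and 4.55%. Other exons moved by more points in MES than in EPI. ATP5C1 went from 76.6% ± 2.48 (SD, n = 3) to 45.2% ± 2.01 (SD, n = 2) in MES, and EHBP1 from 71.5% ± 7.92 to 38.5% ± 2.39. Neither passed the quasi-binomial test of the difference between the states described below (FDR = 0.97 for ATP5C1 and 0.78 for EHBP1). RAI14 and FLNA differed by nearly the same number of points in both states, -29.3 and -24.1 for RAI14 and 13.8 and 12.8 for FLNA. The difference between the states was tested on the logit scale of the reads, and 1 of the 27 events passed an FDR under 0.05, beside 3 of 29278 (0.0102%). This was SNHG8, which fell by 23.1 points in EPI and stood at 34.0% in MES control and 36.0% in MES knockdown libraries (FDR = 0.0021). At an unadjusted p under 0.05, 8 of the 27 differed between the states by the same quasi-binomial test, beside 7.47% of all events, among them TPM1, CLK4 and MARK3. The call on EPI values also favours a difference between the states, so these shares are not directly comparable.

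**Figure D4:**
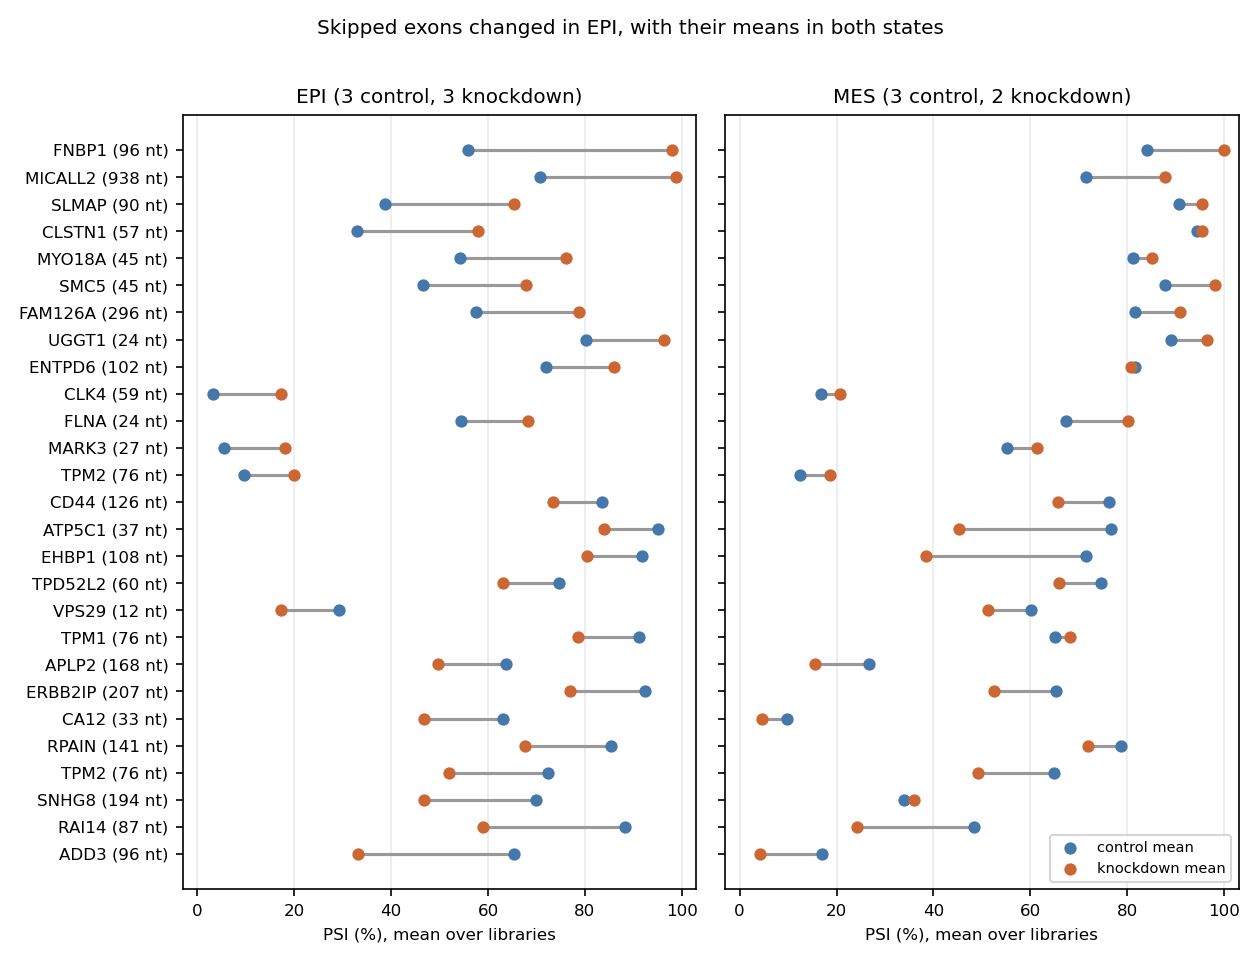
Mean PSI in percent of control (blue) and AKAP8 knockdown (orange) libraries for the 27 SE events changed in EPI that could be tested in both states, in EPI (left, 3 and 3 libraries) and MES (right, 3 and 2 libraries). Grey lines join the means of a state, and 24 of the 27 lines run the same way in both panels.

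Few genes were called in level, and the count depends on the pairing of the libraries. Of 9014 genes tested, 17 passed an FDR under 0.05 with a log2 fold change over 1 in either direction (0.189%). This was the fit without a replicate block, which leaves out the pairing taken for gene values. Of the 17 genes, 7 were higher (0.0777%) and 10 lower (0.111%) after knockdown. The groups did not overlap in 14.1% of all genes, and 889 genes (9.86%) had an unadjusted p under 0.05 in limma. With the replicate block by place in the list 72 genes passed (0.799%), and 54 (0.599%) with the block on the EPI libraries only, and the 17 genes were among both. The count rested on single libraries, with 3 genes without the first control library, 7 without the first knockdown library and 38 without the second knockdown library. A limma fit of the 6 EPI libraries alone called 2 genes, with 199 past the fold limit at an unadjusted p under 0.05. Of the 17 calls, 14 were lost when at least 1 of the 6 EPI libraries was left out and 3 were kept throughout. The calls of DHRS12 and SH3D19 were lost in 5 of the 6 such fits. LOX and AREL1 kept their call under each of the 16 alternatives run.

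Among the genes called without the replicate block, CRYAB and LOX had the largest rises. With the block by place, ZNF502 at 2.48 (FDR = 0.038) and SLC43A1 at 2.33 (FDR = 0.023) also passed in limma. Their control means were low, 3.28 and 3.26. CRYAB, a small heat shock protein, had values of 345, 473 and 428 in control and 2360, 3330 and 1010 in knockdown libraries, a log2 fold change of 2.27 (FDR = 0.014 from limma). LOX, the lysyl oxidase that crosslinks collagen and elastin, had 268, 376 and 470 against 1580, 1950 and 1390 (2.16, FDR = 0.0037). The knockdown libraries of both genes lay above all control libraries. HSD17B10, a mitochondrial dehydrogenase, rose from 305 ± 63.4 to 1130 ± 319 (SD, n = 3, log2 fold change 1.88). The receptor FGFR1 rose from 73.1 ± 23.0 to 202 ± 51.2 (1.47), and its call was lost when 1 of 4 libraries was left out. ANKRD52, a regulatory subunit of protein phosphatase 6, the sialic acid transporter SLC17A5 and the galactosyltransferase B4GALT4 rose by 1.09 to 1.16 on the log2 scale. Among the genes that fell, AREL1, a ubiquitin ligase, had 1400, 1760 and 1400 in control and 362, 303 and 453 in knockdown libraries, a log2 fold change of -2.03 (FDR = 0.00094). It had a larger fall than the -1.20 of AKAP8, as did DHRS12, a dehydrogenase, ARHGAP19-SLIT1, MYLK, MAPK6 and SRGN, a proteoglycan of secretory granules. MYLK, the myosin light chain kinase, went from 561 ± 53.9 to 208 ± 20.6 (-1.43), and MAPK6 (ERK3) from 3630 ± 623 to 1420 ± 257 (-1.36). ARHGAP19-SLIT1 is a read-through gene whose reads can belong to its neighbours, so its value of -1.52 is uncertain. ADIRF, an adipogenesis factor, fell by 1.16 on the log2 scale and RANBP3, a cofactor of nuclear export, by 1.05, and SH3D19, an adaptor protein, had the smallest fall of the called genes.

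All 17 genes moved in the same direction in MES, beside 64.1% of all genes tested, and 13 passed the same limits there, beside 205 of 9014 genes (2.27%). Both states were fitted together and share an estimate of the spread and the cell line, but no library. AREL1 had a log2 fold change of -2.03 in EPI and -1.84 in MES, and HSD17B10 had 1.88 and 1.78. FGFR1 was the gene with the smallest change in MES, 0.16 beside 1.47, where its MES control mean was 1680. No called gene had an FDR under 0.05 for the difference between the states in limma, beside 1 of 9014 genes (0.0111%), and 4 of the 17 had an unadjusted p under 0.05, beside 6.5% of all genes. As for the exons, the call on EPI values favours such a difference.

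**Figure D5:**
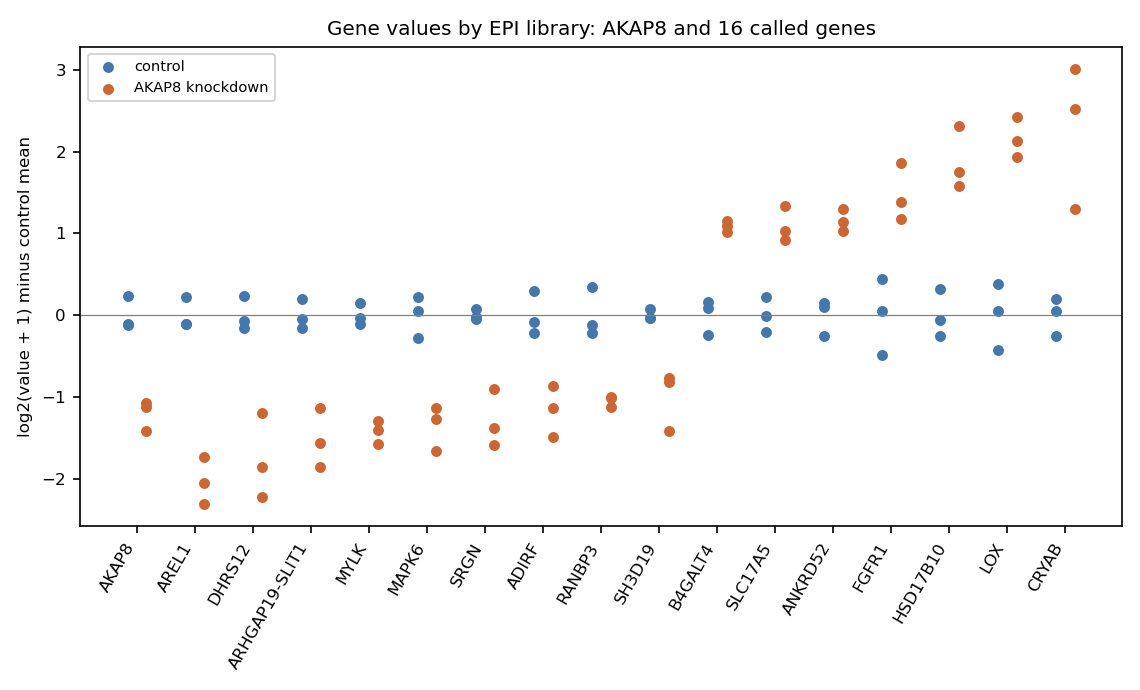
Gene values of AKAP8 and 16 of the 17 called genes in each EPI library, as log2(value + 1) minus the mean of the 3 control libraries, with control libraries in blue and AKAP8 knockdown libraries in orange. The orange points lie below the blue points in each plotted gene that fell and above them in each that rose.

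Lists of related genes showed few called members and small medians, the calls being those of the fit without the replicate block. Over all genes the median log2 fold change was -0.01, with 4.6% higher and 5.26% lower at an unadjusted p under 0.05 in limma. Of 10 stress genes measured, CRYAB was called and 4 were higher at an unadjusted p under 0.05 in limma, none lower, with a median of 0.30. The other 3 were ASNS, a target of amino acid stress (log2 fold change 0.82, FDR = 0.069), the transcription factor ATF4 (0.56, FDR = 0.15) and the chaperone HSPA5 (0.59, FDR = 0.18). Of 22 cell cycle genes 0 were called and 5 were higher at an unadjusted p under 0.05, the mitotic kinases AURKB at 0.48 and PLK1 at 0.45, the kinesin KIF20A at 0.42, MCM7 at 0.41 and CCNB1 at 0.39, with a list median of 0.15. Of 7 interferon response genes 0 were called and 3 were lower at an unadjusted p under 0.05, with MX1 at -1.40 (FDR = 0.37) and IFI44 at -1.0 (FDR = 0.23), and DDX58 at -0.57. Of 11 matrix crosslinking genes LOX was called, while LOXL3 stood at -0.97 and LOXL1 at -0.45, neither past the FDR.

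Markers of the epithelial and mesenchymal states had no called member without the replicate block, and POSTN was called with it. Of 16 epithelial junction genes 0 were called, with a median log2 fold change of -0.04, and PKP2, a desmosome plaque protein, was the single member with an unadjusted p under 0.05 (-0.67, FDR = 0.27 from limma). CDH1 had 1250, 1790 and 1550 in control and 2150, 2320 and 1880 in knockdown libraries (0.48, FDR = 0.71), with groups that did not overlap. Of 21 mesenchymal genes 0 were called, with 4 higher and 3 lower at an unadjusted p under 0.05 and a median of 0.20. POSTN, a matrix protein of mesenchymal cells, had 15.2, 8.85 and 11.4 in control and 44.1, 26.9 and 36.4 in knockdown libraries (1.53, FDR = 0.067, or 0.003 with the replicate block and 0.019 with the block on the EPI libraries only), while its MES control mean was 1440. The transcription factor ZEB2 stood at 1.37 and the protease MMP2 at 0.97, both with overlapping groups. ZEB2 had very low values, 0, 1.97 and 3.1 in control and 1.92, 3.99 and 13.5 in knockdown libraries. On the other side S100A4 stood at -0.95 and the receptor PDGFRB at -0.85, with groups that did not overlap. PDGFRB also had low values, 8.54, 10.8 and 6.2 in control and 5.75, 3.99 and 3.12 in knockdown libraries. ZEB2, MMP2, S100A4 and PDGFRB did not pass the FDR. VIM had a log2 fold change of -0.02 and FN1 of 0.22, both with overlapping groups. FN1 alone varied from 661000 to 1530000 among the control libraries.

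Splicing regulators and partners of AKAP8 were measured in the same way. Of 17 EMT splicing regulators 0 were called, and QKI was the single member with an unadjusted p under 0.05, at 1190, 927 and 1120 in control and 1780, 1200 and 1820 in knockdown libraries (0.55, FDR = 0.27 from limma). ESRP1 had a log2 fold change of -0.05, ESRP2 of 0.09 and HNRNPM, the heterogeneous nuclear ribonucleoprotein M, of 0.22, all with overlapping groups. Of 14 SR proteins and their kinases 0 were called and 0 had an unadjusted p under 0.05, with values between -0.42 and 0.21. Among 14 partners of AKAP8 0 were called, with 1 higher and 1 lower at an unadjusted p under 0.05, and PRKAR2A, the protein kinase A regulatory subunit, stood at 0.41 (FDR = 0.42) and PPP1CB, a catalytic subunit of protein phosphatase 1, at -0.53 (FDR = 0.49). Of the 11 measured kinase anchoring proteins, AKAP8 had the largest fall, AKAP10 stood at -0.51 (FDR = 0.28) and AKAP12 at 0.66 (FDR = 0.48). Basement membrane genes (17 measured) and TGF-beta signalling genes (19 measured) had 0 called members, with medians of -0.17 and -0.01, and LTBP1, which stores TGF-beta in the matrix, stood at 0.99 (FDR = 0.12). Of 13 luminal markers 2 were measured, KRT7 at -0.43 (FDR = 0.49) and GATA3 at -0.11 (FDR = 0.97), and 0 of 6 basal markers were called, with EGFR, the epidermal growth factor receptor, at -0.53.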

How the data were processed

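RNA-seq of 6 EPI libraries and, for side-by-side values, 5 MES libraries was used, with AKAP8 eCLIP peaks from EPI cells. Per the methods and the submitters' processing notes, the authors aligned reads with STAR 2.6.1a and quantified splicing with rMATS 4.0.2. Coordinates are GRCh37; exons and coding bases were read from Gencode 44 lifted to that build, and the submitters' notes name Gencode 24. The deposited tables hold junction counts per event, as fields that join the libraries of a group, and each library's place in the field was used as its number. The deposited peaks carry a −log10 p and a log2 enrichment over input, made by the authors with the eCLIP pipeline 0.2.1a and merge-peaks 0.0.6. The authors' FDR, ΔPSI and 40 columns of per-library PSI, and a gene table that holds their own comparisons, were not used.

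PSI was computed from the junction counts and effective lengths. Each event averaging 20 reads or more per library entered a quasi-binomial F test, with its dispersion moderated with limma 3.58.1 in R 4.3.3, and called at a Benjamini-Hochberg FDR under 0.05 with a difference of at least 10 points. Gene values were junction reads of 33107 SE events present in all comparisons, summed by symbol, divided by median-of-ratios size factors and tested with limma on log2(value + 1) in 1 fit of all 4 groups, for genes that reached 10 in 2 or more libraries. This scale understates the change of low genes. No count model was the main test of genes, and voom on the summed reads was run as an alternative. Both scripts were tested on simulated data. Sequence features used pysam 0.24.0, tables pandas 2.3.3 and scipy 1.17.1 under Python 3.11.15, and plots matplotlib 3.10.9.

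Members and lists were chosen with earlier results of these data known. Text names every called event and gene (1 called gene is counted but not reported here), list members with an unadjusted p under 0.05 (at most 5 a list), and the defining genes AKAP8, AKAP8L, HNRNPM, ESRP1, ESRP2, CDH1, VIM and FN1; other named genes were chosen after their values were seen. Deviations from the group mean of EPI libraries at the same place correlated at 0.43, 0.73 and 0.67 for gene values, which were taken as paired, and at 0.04, 0.20 and 0.14 for splicing, which was not; for MES gene values the correlations were 0.24 and 0.07. This pairing comes from the data and not from the labels. No library pair shared identical reads in more than 0.5% of events.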

Additional observations from a re-analysis of the deposited data

Results flagged for a closer look

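The skipped exon of SNHG8 was the called EPI event whose response to knockdown differed between the states by a test of the difference itself (quasi-binomial test of the group by state term over all 11 libraries, FDR = 0.0021). PSI went from 69.8% to 46.7% in EPI and from 34.0% ± 3.01 (SD, n = 3) to 36.0% ± 4.71 (SD, n = 2) in MES, so the EPI effect minus the MES effect was -25.1 points. All 3 EPI knockdown libraries lay below all EPI control libraries, and the MES groups overlapped.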

How the results depend on the processing

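The count of SE events (28) was 46 with the dispersion trend on all reads, 44 without a trend, 0 with limma on the logit of PSI (232 at an unadjusted p under 0.05), 45 without a limit on the difference and 11 at 20 points. The count for the other event types (4) was 2 with a trend that was not robust, 0 with limma on the logit (231 at an unadjusted p under 0.05), 12 without a limit and 1 at 20 points. Leaving out 1 library gave 16 to 31 SE events, with 16 without the first or the third control library and 17 without the third knockdown library. It gave 2 to 85 events of the other types, with 85 without the first knockdown library, 12 without the third control library and 2 without the first or second control library. For genes (17) it gave 3 to 38, with 3 without the first control, 11 without the second control, 7 without the first knockdown and 38 without the second knockdown library, and the 6 EPI libraries alone gave 2. AKAP8 stood at -1.27 to -1.09 (FDR 0.065 to 0.27) with a library left out. The causes were not tested, beyond fewer libraries in a fit.

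With the replicate block, by place in the list, 72 genes were called, and 54 with the block on the EPI libraries only, an alternative chosen after seeing the data; AKAP8 kept -1.20 and passed the FDR in both. In splicing, where the places were not taken as pairs, the replicate block gave 30 SE events, with all 28 retained, and 12 of the other types. No called event or called gene changed direction under the alternatives run: of 511 values for 32 events, 378 kept the call and 133 lost it, 70 of them with a library left out, and of 272 values for 17 genes, 206 kept it and 66 lost it. Called exons with 35 to 84 reads per library (FNBP1, MICALL2 and CLK4) were the least precise in depth.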
